A study of Cricetulus griseus with 8 samples.

Results

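The SLC25 family is the set of mitochondrial carriers, membrane proteins that move metabolites across the inner mitochondrial membrane. They were read in LR73 cells, a Chinese hamster phagocyte line, kept alone or cultured with apoptotic Jurkat cells. Members were chosen by symbol, as every row whose gene name is Slc25a followed by a number. The rule found 44 of 26776 named genes, and 34 of the 44 passed the filter of a mean of at least 10 normalized counts over the 8 libraries. A normalized count is the number of reads of a gene divided by a size factor for its library. The rule used no member level apart from that filter, but it was chosen with earlier results of these data known.

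The phagocytes alone gave 4 libraries and the co-cultures gave 4 libraries. Both groups were LR73 cells, labelled as fibroblasts and grown in alpha-MEM with serum, and the line was derived from Chinese hamster ovary cells. In the co-cultures the phagocytes met Jurkat cells, a human T cell line, which had received 1500 mJ of UV-C and a further 4 h in culture. All 8 columns of the table carry the prefix GFP, which the labels do not explain. The sources used here do not give the length of the co-culture. Replicates are called biological, but nothing says how the cultures were separated, so p-values measure only the spread between these libraries.

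Depth ranged from 22.7 to 29.7 M reads per library, counted over named genes. Of the 16 fibroblast markers listed, 15 were in the table and 11 had a mean above the filter, with Thy1 at 0 and Col1a1 and Col1a2 near 0, at mean levels of 0.475 and 1.41 normalized counts in phagocytes alone. The summed level of the list was 168195 to 173008 normalized counts alone and 197436 to 199491 with apoptotic cells, mostly through Vim, whose mean went from 111964 to 130760 normalized counts. By limma 4 of its 11 tested members rose and 1, Dcn, fell, or 45.5%, beside 11.7% of all tested genes. Of 30 T cell markers listed, 28 were in the table, 7 of them at 0 in every library. The 28 summed to 1567 to 1682 normalized counts alone and 1424 to 1504 with apoptotic cells. Most of this sum was Tcf7, Themis and Lat, with means of 677, 631 and 204 normalized counts in phagocytes alone. With apoptotic cells their means were 663, 511 and 177, so the lower sum came mostly through Themis. Since these genes were read without Jurkat cells, the sum does not measure T cell RNA. By limma 0 of the 9 tested T cell markers rose and 2, Cd28 and Themis, fell, or 22.2%, beside the same 11.7%. From this list 8 markers are called defining here, a choice not set when the lists were fixed. They are Cd3d, Cd3e, Cd3g, Cd2, Cd5, Cd7, Lck and Ptprc. Of these 8, 3 had no reads in any library (Cd3d, Cd3g and Cd2). The summed level of the 8 ran from 0 to 3.04 normalized counts in phagocytes alone and from 5.50 to 9.88 in the co-cultures. The part of either list in the values of the carriers was not tested. How human reads were handled is not known here, so carrier counts in the co-cultures could include reads of Jurkat transcripts, and their share was not measured. Alone library 1 stood apart, with a chi-square per degree of freedom of 16.6 to 30.7 against the other alone libraries, where all other pairs within a group gave 1.56 to 3.26. In bulk RNA, fewer cells of a type and less RNA per cell cannot be told apart.

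As background, the inner mitochondrial membrane is closed to most charged metabolites, and each carrier lets a given class through, often by exchanging one substrate for another. The family supplies ADP and phosphate to ATP synthase and passes ATP out. It moves citrate, malate, aspartate and glutamate for the shuttles that link the cytosol with the tricarboxylic acid cycle, and it brings in carnitine esters, iron, glutathione and cofactors. Most members share a fold of repeated pairs of membrane helices, and they are made in the cytosol and inserted by the TIM22 complex.

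With apoptotic cells, 2 of the 34 tested carriers fell and none rose, by limma and also by edgeR and DESeq2. Slc25a42, which carries coenzyme A into mitochondria, fell by 14.7% (adjusted p = 0.0132 by limma), and Slc25a45, a member grouped with the carnitine carriers by sequence, fell by 19.4% (adjusted p = 0.0198 by limma). The 2 called members were 5.88% of those tested, and over all 13494 tested genes 11.7% were called, 6.36% higher and 5.31% lower. None of the 34 changed by 1.5-fold or more on the log2(normalized count + 1) scale, on which a change of a gene with few reads is understated. The median log2 fold change was -0.02 over the members and 0.00148 over all tested genes, and the log2 fold change was above 0 in 13 members and below 0 in 21.

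The changes of the carriers were small and closely measured. The median standard error of a member's log2 fold change was 0.05, against 0.07 over all tested genes. For 29 of the 34 members (85.3%) the whole 95% interval of the difference lay within a 1.25-fold change in either direction, where 63.3% of all tested genes had such an interval. Above a mean of 100 normalized counts those shares were 93.5% of 31 members and 78.2% of 10774 genes. At an unadjusted p under 0.05 by limma, 2 members were higher and 5 lower, which is 20.6% of members and 26.5% of all tested genes. The groups did not overlap in 1 member that was higher and 5 that were lower with apoptotic cells, 17.6% of the 34, and over all tested genes the share was 21.2%. Among 143 other tested solute carriers, 15 were called higher and 9 lower, or 16.8%, and no test compared the families.

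**Figure D1:**
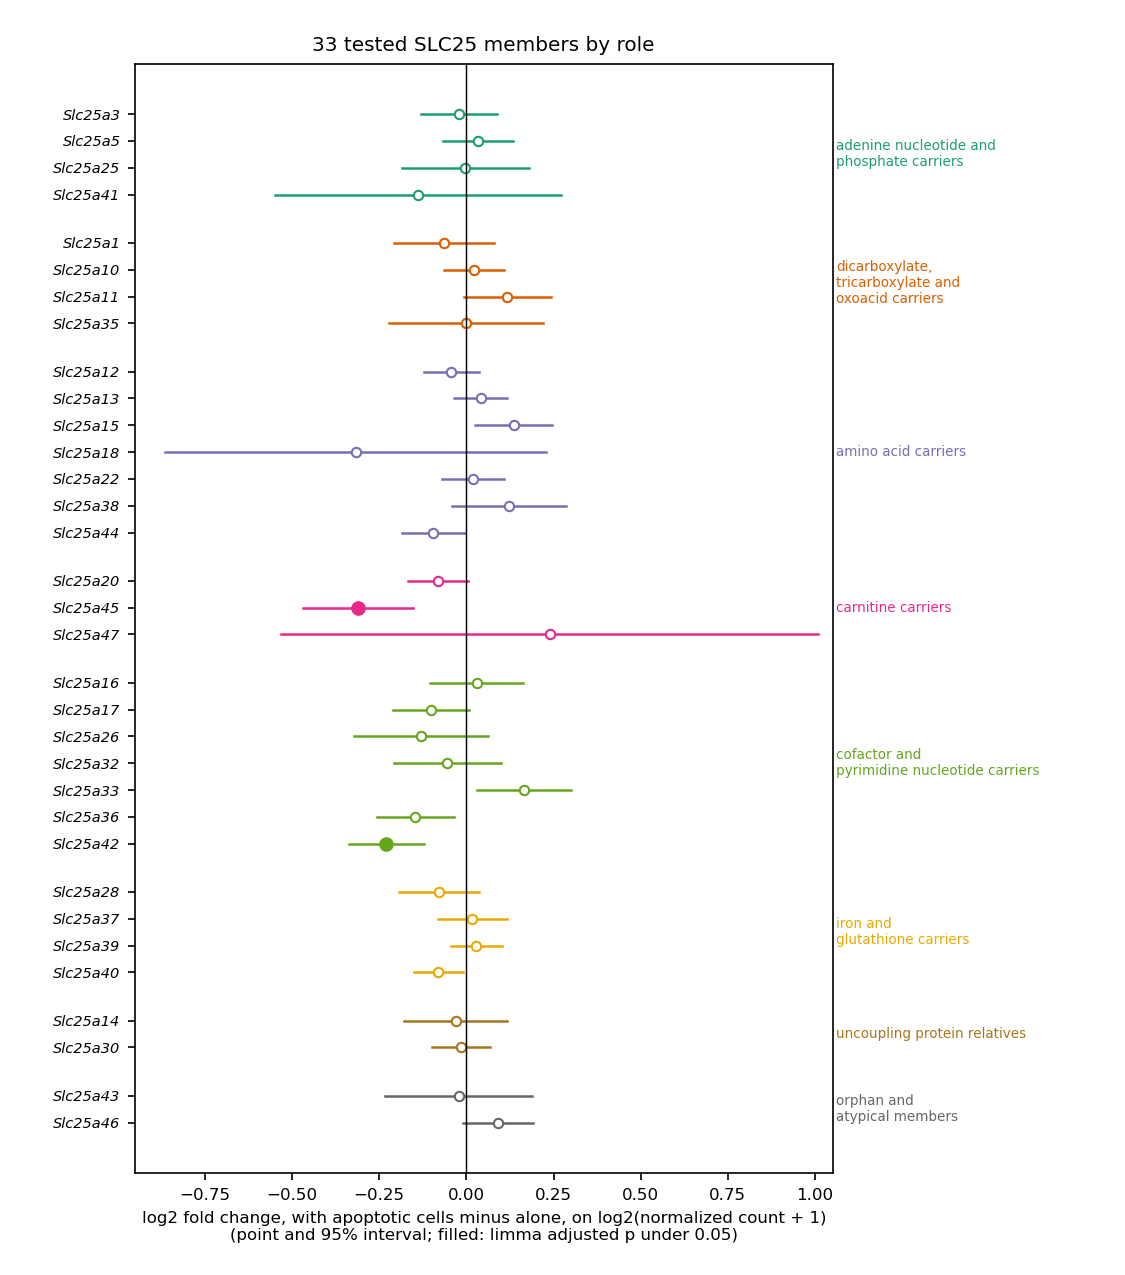
Log2 fold change with apoptotic cells against alone (horizontal axis, on log2(normalized count + 1)) for 33 tested SLC25 members (rows), grouped and coloured by role, with the 95% interval as a line and a filled point where the limma adjusted p is under 0.05. Only Slc25a42 and Slc25a45 have filled points, both left of 0, and the 3 widest intervals belong to Slc25a18, Slc25a41 and Slc25a47, the members with the fewest reads among those tested.

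Among the adenine nucleotide and phosphate carriers, which feed ATP synthase, 0 of 4 tested passed by limma, edgeR or DESeq2, and 0 had an unadjusted p under 0.05. Slc25a3, which brings phosphate into mitochondria, stood at 23102, 19487, 20264 and 19791 normalized counts in the 4 alone libraries and at 20309, 20271, 20052 and 20621 in the 4 co-cultures. Alone library 1 was the highest of all 8, alone libraries 2 and 4 lay below every co-culture, and alone library 3 lay above only co-culture library 3. Its log2 fold change was -0.02 (95% interval -0.13 to 0.09, adjusted p = 0.814 by limma), and it became 0.03 (adjusted p = 0.296 by limma) without alone library 1.

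Slc25a5 encodes the ADP/ATP carrier ANT2, the form typical of dividing cells. It stood at 21878, 18566, 19643 and 19710 normalized counts alone and at 20289, 20408, 20210 and 20619 with apoptotic cells. The 4 co-cultures lay close together, above 3 of the alone libraries and below alone library 1. With all libraries the log2 fold change was 0.03 (SE 0.04, adjusted p = 0.67 by limma). Without alone library 1 it was 0.08 (SE 0.02, adjusted p = 0.0162 by limma), a rise of 5.6%, and without alone library 2 it was -0.000265.

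The other ADP/ATP carriers were at or near 0. Slc25a4, which encodes ANT1 of heart and muscle, had 0, 0, 0 and 2 reads in the alone libraries and 1, 2, 0 and 3 in the co-cultures, too few to be tested. The 8 T cell markers called defining above had 5 reads alone and 30 in the co-cultures, but that choice was not set when the lists were fixed. The summed level of the whole T cell list, mostly Tcf7, Themis and Lat, was lower in the co-cultures. Any part of Jurkat reads in the Slc25a4 counts was not tested. Slc25a31, the germ cell form ANT4, had no reads in any library. Among the ATP-Mg/phosphate carriers, which set the adenine nucleotide pool of the matrix, Slc25a25 had a log2 fold change of -0.00256 (SE 0.08) and Slc25a41 one of -0.14 (SE 0.19). Slc25a23 had 2 reads alone and 1 with apoptotic cells. Slc25a24, listed in the table under a LOC number and paired with its symbol through RefSeq, falls outside the rule for members. It stood at 1209 ± 46.1 normalized counts alone and 1319 ± 34.4 with apoptotic cells (SD, n = 4 per group), with no overlap. Its log2 fold change was 0.13 (SE 0.04), with a limma adjusted p of 0.077. It passed the limma threshold in 1 of 17 alternatives, without alone library 1 (adjusted p = 0.0397).

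No carrier of di- and tricarboxylates or oxoacids passed by limma, edgeR or DESeq2, 0 of 4 tested, and 0 had an unadjusted p under 0.05. Slc25a1, the citrate carrier that supplies acetyl units for lipid synthesis in the cytosol, stood at 1577, 1278, 1362 and 1414 normalized counts alone and at 1302, 1413, 1262 and 1402 with apoptotic cells. The groups overlapped and alone library 1 was the highest, with a log2 fold change of -0.06 (SE 0.07, adjusted p = 0.565 by limma) that shrank to -0.0075 without alone library 1.

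Slc25a10, the dicarboxylate carrier, stood at 1310, 1288, 1338 and 1334 normalized counts alone and at 1350, 1398, 1313 and 1294 with apoptotic cells. The groups overlapped, with co-culture library 2 the highest of the 8, and the 95% interval of the change ran from -4.25% to 7.74%. Slc25a11, which exchanges oxoglutarate for malate in the malate-aspartate shuttle, stood at 908, 755, 804 and 806 normalized counts alone and at 900, 888, 866 and 889 with apoptotic cells. The co-cultures lay above alone libraries 2, 3 and 4, and alone library 1 was above all of them. The log2 fold change of Slc25a11 was 0.12 (SE 0.06, adjusted p = 0.208 by limma), and it was 0.17 (SE 0.04, adjusted p = 0.0039 by limma) without alone library 1. Slc25a35, grouped here although its substrate is not established, was at 214 ± 14.7 and 215 ± 27.5 normalized counts (SD, n = 4 per group).

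The amino acid carriers had 7 tested members, of which none passed by limma, edgeR or DESeq2, while 1 was higher and 1 lower at an unadjusted p under 0.05. Slc25a12 and Slc25a13 encode aralar and citrin, the aspartate-glutamate carriers of the malate-aspartate shuttle. Slc25a12 stood at 2024, 2041, 2033 and 2151 normalized counts alone and at 2057, 1955, 1988 and 2008 with apoptotic cells. Slc25a13 stood at 1926, 1904, 1932 and 2015 normalized counts alone and at 2050, 1966, 1972 and 2011 with apoptotic cells. In both genes the groups overlapped. The log2 fold changes were -0.04 (SE 0.04) and 0.04 (SE 0.03), with limma adjusted p-values of 0.475 and 0.481.

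The ornithine carrier Slc25a15, which serves the urea cycle and polyamine synthesis, was the 1 tested member whose co-cultures all lay above the alone libraries. Its levels were 461 ± 20.2 normalized counts alone and 507 ± 11.3 with apoptotic cells (SD, n = 4 per group), and its log2 fold change was 0.14 (SE 0.05). The limma adjusted p was 0.11, and it ran from 0.0624 to 0.238 over the alternatives, so that it passed in none. Slc25a44, a carrier of branched-chain amino acids, stood at 1465, 1582, 1496 and 1605 normalized counts alone and at 1446, 1443, 1465 and 1400 with apoptotic cells. All co-cultures lay below the alone libraries, the highest of them level with alone library 1. The log2 fold change of Slc25a44 was -0.09 (SE 0.04, adjusted p = 0.17 by limma), and -0.12 (adjusted p = 0.0152 by limma) without alone library 1.

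Slc25a38 imports glycine for the first step of haem synthesis. It stood at 334, 284, 274 and 270 normalized counts alone and at 305, 310, 328 and 319 with apoptotic cells. Alone library 1 was the highest of all 8 and the other alone libraries were below every co-culture. The log2 fold change was 0.12 (SE 0.07, adjusted p = 0.325 by limma) with all libraries and 0.19 (SE 0.06, adjusted p = 0.0314 by limma) without alone library 1. Slc25a22, the main glutamate carrier, stood at 1783 ± 81.5 normalized counts alone and 1804 ± 32.9 with apoptotic cells. Slc25a18, the other glutamate carrier, stood at 12.3, 20.01, 11.2 and 19.7 normalized counts alone and at 10.9, 9.95, 15.4 and 12.7 with apoptotic cells. At this depth its groups overlapped, and the interval of its log2 fold change, from -0.86 to 0.23, was wide. Slc25a29, a carrier of basic amino acids just outside the filter with a mean of 3.75 normalized counts, had 16 and 14 reads, and Slc25a2, the other ornithine carrier, had none.

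**Figure D2:**
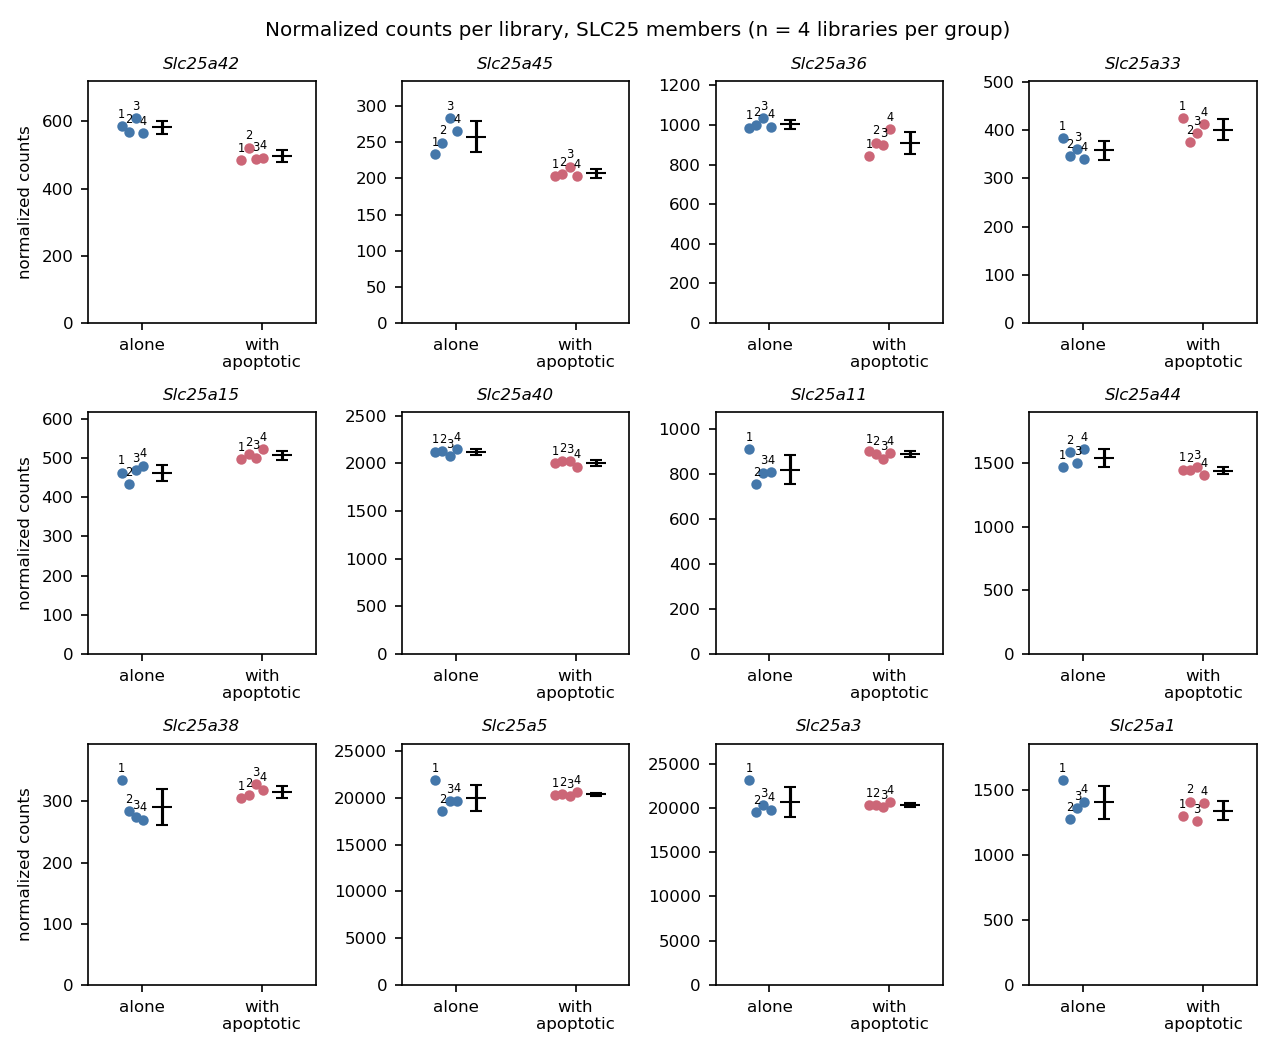
Normalized counts (vertical axis, from 0) of 12 SLC25 members in each library of phagocytes alone and with apoptotic cells, with the replicate number beside each point and the mean and SD of 4 libraries as a bar. Slc25a42 and Slc25a45 lie lower with apoptotic cells without overlap, and alone library 1 is the highest of the 8 libraries in Slc25a1, Slc25a3, Slc25a5, Slc25a11 and Slc25a38.

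Of 3 tested members grouped as carnitine carriers, 1 fell. Slc25a45 stood at 234, 249, 283 and 266 normalized counts alone and at 203, 206, 217 and 204 with apoptotic cells. Every co-culture lay below every alone library, and alone library 1 was the lowest of its group. The log2 fold change was -0.31 (SE 0.07, adjusted p = 0.0198 by limma), with means of 258 ± 21.3 and 207 ± 6.24 normalized counts (SD, n = 4 per group) and 1081 against 797 reads in all. It was -0.36 (adjusted p = 0.000839 by limma) without alone library 1, and the limma call was lost without alone library 3 or 4 (adjusted p = 0.063 and 0.0541) and without co-culture library 1, 2 or 4 (adjusted p = 0.063, 0.0573 and 0.0597). In the authors' deposited table its adjusted p was 0.0167.

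Slc25a20, the carnitine-acylcarnitine carrier that brings fatty acids to beta-oxidation, stood at 2130, 1962, 2047 and 2141 normalized counts alone and at 1963, 1902, 1985 and 1973 with apoptotic cells. The co-cultures lay below alone libraries 1, 3 and 4 and on both sides of alone library 2, with a log2 fold change of -0.08 (SE 0.04, adjusted p = 0.209 by limma). Slc25a47, a liver carrier, stood at 5.70, 15.0, 14.2 and 13.4 normalized counts alone and at 18.8, 13.3, 7.69 and 17.6 with apoptotic cells. It was the member just inside the filter, with a mean of 13.2 normalized counts, and its log2 fold change of 0.24 (SE 0.35) turned to -0.06 without alone library 1. Slc25a48 had no reads.

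All 8 cofactor and pyrimidine nucleotide carriers were tested, more than in any other role group, and 1 of them fell. Slc25a42 stood at 585, 569, 609 and 566 normalized counts alone and at 484, 522, 488 and 492 with apoptotic cells. The lowest alone library lay above the highest co-culture, and alone library 1 lay inside the range of its group. The log2 fold change was -0.23 (SE 0.05, 95% interval -0.34 to -0.12, adjusted p = 0.0132 by limma), with means of 582 ± 19.6 and 497 ± 17.3 normalized counts (SD, n = 4 per group) and 2446 against 1909 reads in all. It was -0.23 (adjusted p = 0.00195 by limma) without alone library 1. Its limma call was narrowly lost without alone library 3 (adjusted p = 0.0502), without co-culture library 1 (adjusted p = 0.0518) and with the replicate number as a block (adjusted p = 0.0538), while the log2 fold change stayed between -0.25 and -0.21 in every alternative. In the authors' deposited table its adjusted p was 0.00852, and Slc25a42 and Slc25a45 were also the members called there, 0 higher and 2 lower of 33 with an adjusted p. Over all 13093 genes with an adjusted p there, 878 were called higher and 718 lower. Those calls come from the same 8 libraries and are no independent support.

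The pyrimidine nucleotide carriers Slc25a33 and Slc25a36, which supply precursors for mitochondrial DNA and RNA, had log2 fold changes of opposite sign. Slc25a33 stood at 384, 347, 361 and 340 normalized counts alone and at 425, 375, 395 and 412 with apoptotic cells. Only co-culture library 2 lay below alone library 1, and the log2 fold change was 0.16 (SE 0.06, adjusted p = 0.114 by limma). Slc25a36 stood at 986, 1001, 1033 and 992 normalized counts alone and at 842, 910, 898 and 979 with apoptotic cells. All 4 co-cultures lay below the alone libraries, co-culture library 4 only just, and the log2 fold change was -0.15 (SE 0.05, adjusted p = 0.087 by limma). Without alone library 1 both passed the limma threshold, Slc25a33 at 0.20 (adjusted p = 0.0178) and Slc25a36 at -0.15 (adjusted p = 0.0138).

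Other cofactor carriers did not pass the limma threshold. Among them were Slc25a26 for S-adenosylmethionine (-0.13, SE 0.09), Slc25a32 for folate and flavin (-0.05, SE 0.07), Slc25a16, linked to coenzyme A (0.03, SE 0.06), and the peroxisomal Slc25a17 (-0.10, SE 0.05), all as log2 fold changes. Slc25a26 reached 322 normalized counts in alone library 1 and 240 to 271 in the other 7 libraries.

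Of 4 tested iron and glutathione carriers, 0 passed by limma, edgeR or DESeq2, and 1 was lower at an unadjusted p under 0.05. Slc25a37, the iron importer mitoferrin 1, stood at 2430, 2667, 2760 and 2766 normalized counts alone and at 2671, 2701, 2748 and 2620 with apoptotic cells. Alone library 1 was the lowest of all 8, and the log2 fold change of 0.02 (SE 0.04, adjusted p = 0.832 by limma) turned to -0.02 without it. Slc25a28, mitoferrin 2, went the other way in that library, at 1558 normalized counts against 1333 to 1382 in the other alone libraries and 1293 to 1377 in the co-cultures. Slc25a39, a glutathione importer of mitochondria, stood at 7403, 6883, 6900 and 6937 normalized counts alone and at 7214, 7085, 7044 and 7340 with apoptotic cells. Alone library 1 was again the highest, and the other alone libraries were below every co-culture, with a log2 fold change of 0.03 (SE 0.03, adjusted p = 0.616 by limma). Its relative Slc25a40 stood at 2117 ± 32.0 normalized counts alone and 2002 ± 27.3 with apoptotic cells (SD, n = 4 per group), without overlap. Its log2 fold change was -0.08 (SE 0.03, adjusted p = 0.136 by limma), and it passed in none of the alternatives.

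Among 2 tested relatives of the uncoupling proteins and 2 tested orphan members, 0 passed by limma, edgeR or DESeq2, and 0 had an unadjusted p under 0.05. Slc25a14 (UCP5) and Slc25a30 had log2 fold changes of -0.03 (SE 0.07) and -0.01 (SE 0.04), and Slc25a27 (UCP4) had 2 reads alone and 0 in the co-cultures. Slc25a46, an outer membrane protein that takes part in mitochondrial fission and cristae shape, stood at 655 ± 27.0 normalized counts alone and 697 ± 10.6 with apoptotic cells, a log2 fold change of 0.09 (SE 0.04, adjusted p = 0.226 by limma). Slc25a43 had a log2 fold change of -0.02 (SE 0.09). Of the 10 members below the filter, 5 had no reads in any library, Slc25a2, Slc25a31, Slc25a34, Slc25a48 and Slc25a53. A count of 0 allows up to 3 reads in a group, or 0.0287 per M reads alone and 0.031 with apoptotic cells, for counting error only. Slc25a21, the oxoadipate carrier, had 1 read in all.

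**Figure D3:**
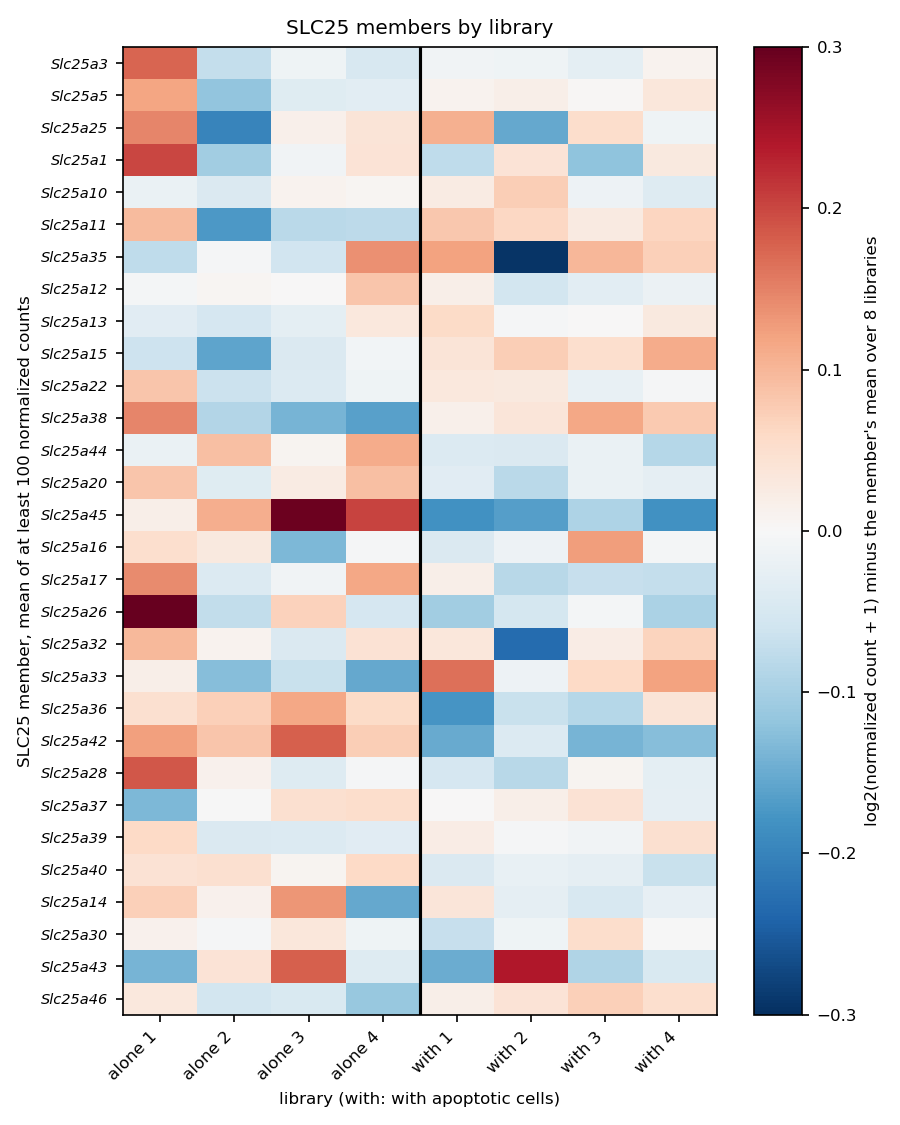
Levels of 30 SLC25 members whose mean reached 100 normalized counts (rows, ordered by role) in the 8 libraries (columns), coloured by log2(normalized count + 1) minus the member's mean over all libraries, with colours ending at 0.3 in either direction. Alone library 1 has more red rows than the other alone libraries, and Slc25a42 is red in the 4 alone libraries and blue in the 4 co-cultures, as is Slc25a45 except that alone library 1 is close to white.

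Alone library 1 differed from the rest of its group, over the carriers as over all genes, and which members pass depends on it. The median deviation of the 34 members in that library from the mean of the other 3 alone libraries was 0.06 on the log2 scale, against 0.00569 over all tested genes, where deviations in both directions cancel. Regardless of sign, the median absolute deviation was 0.12 over the members and 0.17 over all tested genes. Alone library 1 lay above the mean of the others in 22 of the 34 members, a larger share than the 50.8% of all tested genes. In 16 members it was the highest of the 4 alone libraries, again a larger share than the 39.4% of all tested genes. No test compared these shares. The reads of the 44 members made up 0.298 to 0.33% of all reads in the alone libraries and 0.303 to 0.307% in the co-cultures. Slc25a3 and Slc25a5 together held 51.7 to 54.6% of the member reads in each library, so this share mostly follows those genes. Without alone library 1, 4 members rose and 4 fell by limma, 23.5% of the 34, where 26% of all tested genes were called. Those that rose were Slc25a5, Slc25a11, Slc25a33 and Slc25a38, and those that fell were Slc25a36, Slc25a42, Slc25a44 and Slc25a45. Against the 3 remaining alone libraries, Slc25a33 rose by 14.8% and Slc25a45 fell by 21.9%. With array weights, which give a deviating library less weight in limma, 3 rose and 4 fell, the same genes but for Slc25a5.

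**Figure D4:**
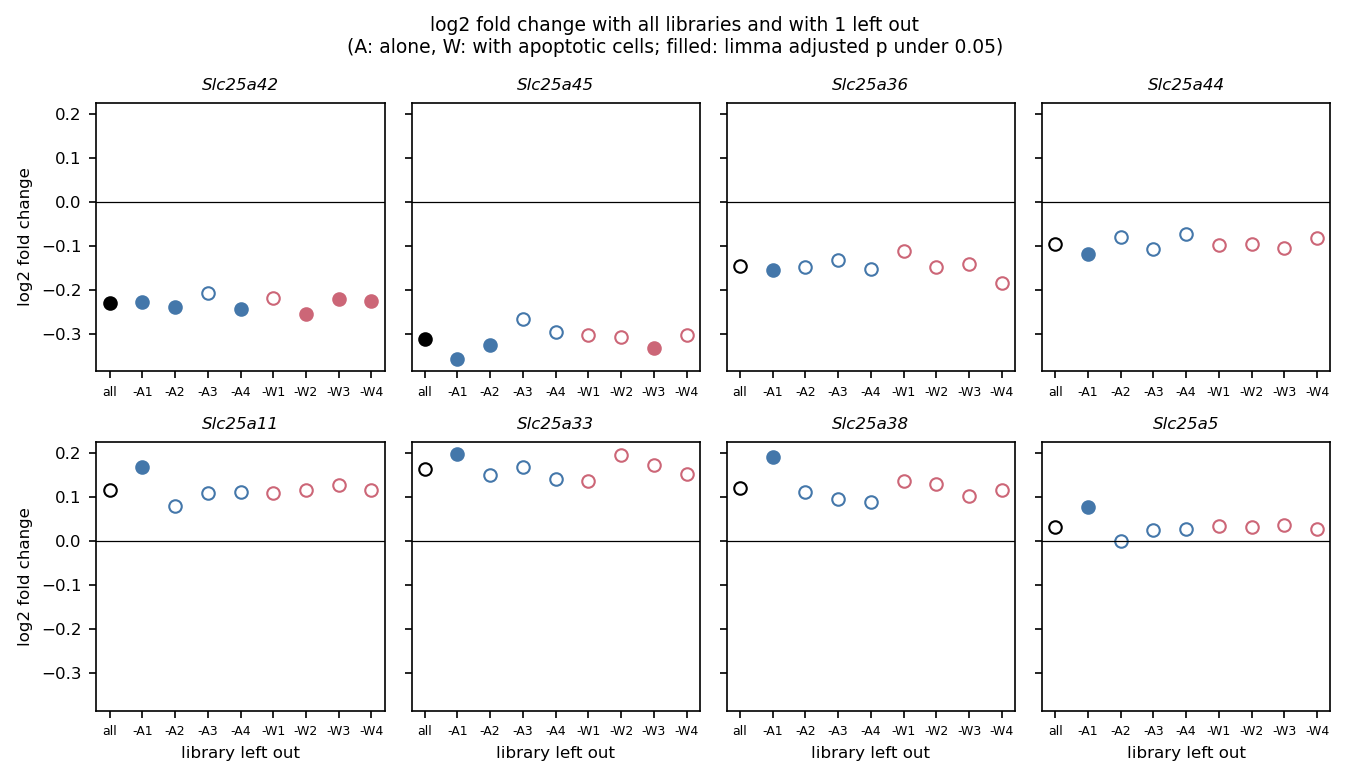
Log2 fold change (vertical axis) of the 8 SLC25 members that passed without alone library 1, fitted on all libraries and after leaving out each in turn (horizontal axis, A for alone and W for with apoptotic cells), with a filled point where the limma adjusted p is under 0.05. Slc25a42 stays between -0.25 and -0.21, and Slc25a5, Slc25a11, Slc25a33, Slc25a36, Slc25a38 and Slc25a44 have a filled point only without alone library 1.

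Ratios of related carriers within a library do not depend on how that library was scaled. They were formed for 5 pairs of carriers of the same substrate, chosen after the members' values had been seen, so they are given as a description with no test. The size of a ratio also depends on the lengths of both transcripts, and only its change between groups is read. Slc25a12 to Slc25a13 was 1.05, 1.07, 1.05 and 1.07 alone and 1.00, 0.994, 1.01 and 0.999 with apoptotic cells. All 4 co-cultures lay below all alone libraries, and alone library 1 lay with its group. The ratio of Slc25a33 to Slc25a36 was 0.357 ± 0.0216 alone and 0.444 ± 0.0417 with apoptotic cells, and that of Slc25a39 to Slc25a40 was 3.32 ± 0.119 and 3.58 ± 0.116 (SD, n = 4 per group), both without overlap, the latter by little. The mitoferrin ratio Slc25a37 to Slc25a28 was 1.90 ± 0.232 and 2.01 ± 0.0572, and that of Slc25a22 to Slc25a18 was 122 ± 38.7 and 152 ± 30.7, both with overlap. Among all 561 pairs of tested members, the groups did not overlap in 107 ratios, or 19.1%.

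**Figure D5:**
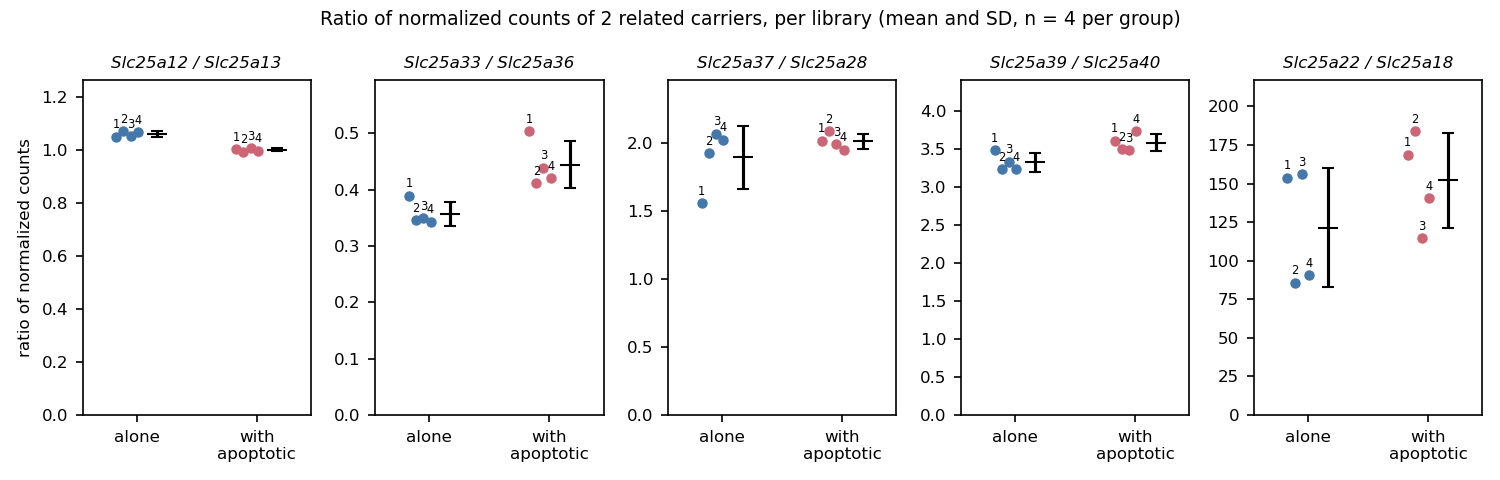
Ratio of the normalized counts of 2 carriers of the same substrate (vertical axis, from 0) in each library of phagocytes alone and with apoptotic cells, with replicate numbers and the mean and SD of 4 libraries. The ratio of Slc25a12 to Slc25a13 is 1.05 to 1.07 alone and 0.994 to 1.01 with apoptotic cells, and the groups also lie apart for Slc25a33 to Slc25a36 and Slc25a39 to Slc25a40.

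Other genes of carrier biology were read from lists of relatives, import machinery, shuttle enzymes, haem synthesis and regulators of mitochondrial biogenesis. These lists, too, were chosen with earlier results of these data known. Of 56 tested, 6 rose and 2 fell by limma, or 14.3%, beside 11.7% of all tested genes. Of 2 tested family members with other symbols, 0 passed by limma, edgeR or DESeq2, and 1 was higher at an unadjusted p under 0.05. Mtch2, an outer membrane insertase, had a log2 fold change of 0.09 (SE 0.03, adjusted p = 0.0868 by limma) and its relative Mtch1 one of -0.07 (SE 0.03), and Ucp2 had means of 5.50 and 5.59 normalized counts. The pyruvate carrier subunit Mpc1 (-0.07, SE 0.06) and the serine transporter Sfxn1 (0.06, SE 0.03) had the smallest adjusted p-values among the other inner membrane carriers. Of these 6, 0 passed by any of those tools and 0 had an unadjusted p under 0.05. Of the 3 outer membrane channels, 0 passed by any of those tools and 1 was higher at an unadjusted p under 0.05, with Vdac1 at 0.09 (SE 0.03, adjusted p = 0.117 by limma) and Vdac2 at 0.06 (SE 0.04).

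Of 12 tested genes of carrier import, 1 rose and 1 fell. Tomm70a, the outer membrane receptor for carrier precursors, rose from 7227 ± 387 to 8092 ± 136 normalized counts (log2 difference 0.16, SE 0.04, adjusted p = 0.0237 by limma). Timm10b, a small chaperone subunit of the TIM22 complex, fell from 1094 ± 134 to 879 ± 29.3 normalized counts (log2 difference -0.31, SE 0.07, adjusted p = 0.0233 by limma). Leaving out any single co-culture library ended both limma calls, and so did leaving out alone library 3 or 4 for Tomm70a (largest adjusted p 0.0786 for Tomm70a and 0.0771 for Timm10b).

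Shuttle enzymes had 2 rises among 13 tested and no fall. Got1, the cytosolic aspartate aminotransferase that works with Slc25a12 and Slc25a13 in the malate-aspartate shuttle, rose from 4675 ± 299 to 5346 ± 95.1 normalized counts (log2 difference 0.20, SE 0.04, adjusted p = 0.0182 by limma). Cpt2, which acts after Slc25a20 on imported acylcarnitines, rose by 0.12 in log2 units (SE 0.04, adjusted p = 0.0462 by limma). The limma call of Got1 ended when any of co-culture libraries 1, 3 and 4 or alone libraries 3 and 4 was left out (adjusted p up to 0.0622). That of Cpt2 ended when alone library 2 or 3 or any single co-culture library was left out, with the block, with no filter, under TMM scaling and by edgeR (adjusted p up to 0.134).

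Haem and iron-sulphur genes, 12 tested, had 1 rise and 1 fall. Uros, the uroporphyrinogen synthase, fell from 739 ± 21.9 to 595 ± 34.2 normalized counts (log2 difference -0.31, SE 0.05, adjusted p = 0.00391 by limma). Alas1, the enzyme that uses the glycine carried by Slc25a38, rose by 0.14 (SE 0.04, adjusted p = 0.0371 by limma), a call lost without any 1 library other than alone library 1, with the block, with no filter and by DESeq2 (adjusted p up to 0.113). Among 8 tested regulators of mitochondrial biogenesis, 2 rose. Pprc1, a coactivator of the PGC-1 family, rose from 7102 ± 472 to 8427 ± 155 normalized counts (log2 difference 0.25, SE 0.05, adjusted p = 0.00736 by limma), and Nrf1, a transcription factor of nuclear genes for mitochondria, rose by 0.13 (SE 0.03, adjusted p = 0.0195 by limma). Uros and Pprc1 kept their limma calls in all 17 alternatives. The Nrf1 call was lost without alone library 3 or co-culture library 1, 2 or 4 and with the block (adjusted p up to 0.0706).

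Some carrier genes follow each other in the order of protein-coding genes in the hamster genome. Whether reads were shared between such neighbours was not measured. In the RefSeq annotation of assembly CriGri-PICRH-1.0, used here for symbols and neighbours and not for coordinates, Slc25a23 is followed by Slc25a41, Slc25a47 by Slc25a29 and Slc25a5 by Slc25a43. Slc25a5 had a log2 fold change of 0.03 and Slc25a43 one of -0.02, with 95% intervals of -0.07 to 0.13 and -0.23 to 0.19. The other pairs each hold a member with too few reads to be tested. Since processed copies of ADP/ATP carrier genes are common in mammalian genomes, reads of Slc25a5 could be split between near-identical copies, and how such reads were treated is not stated in those sources.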

How the data were processed

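RNA was measured in 8 libraries of LR73 cells, 4 alone and 4 with apoptotic cells. The submitters' processing notes list FastQC, STAR, featureCounts and DESeq2, with no versions. The genome build, strand setting and handling of human reads were not given in the sources used here. The authors deposited 1 table. Per the file headers and values, it holds a normalized signal per library, that is, the reads of each gene over the size factor of its library, and whole reads were recovered for 100% of values within a tolerance of 0.01 reads. The authors' deposited table also holds log2 fold changes with standard errors, a test score, and p-values, used only where named. Columns were matched to titles by replicate number and by the letters AC. A nameless row, with 0.14 to 0.176% of reads, was left out.

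The 13494 genes whose mean reached 10 normalized counts were tested with limma 3.58.1 in R 4.3.3, trend option, on log2(normalized count + 1), two-sided, with group as the only term. Called means a Benjamini-Hochberg adjusted p under 0.05 over all tested genes. Alternatives were pseudocounts of 0.5 and 5, no filter, a mean of at least 100, TMM scaling, edgeR 4.0.16 (quasi-likelihood) and DESeq2 1.42.0 on the recovered reads, array weights, a replicate block, and each library left out, with the tested genes kept. In simulated counts for this comparison (13494 genes), 33 of 67 genes changed 1.2-fold and 64 of 67 changed 1.5-fold were recovered. These shares are given by size of change only. They cannot be applied to the members with few reads, Slc25a18, Slc25a41 and Slc25a47. Recovery with a library that deviates as alone library 1 does was not tested. Any member could be named. Values in every library were given for called members and the 5 largest log2 fold changes in size. They were also given for a set of 12 whatever their values, of which Slc25a51 is not analysed here. Of each related list, called members were named, or the 2 with the smallest adjusted p. Those of Slc25a36, Slc25a38 and Slc25a44 were added after their values were seen. Members and lists were chosen with earlier results of these data known. Of the 44 members, 43 were found in RefSeq by symbol. Figures used matplotlib 3.10.9. One tested member, counted in all totals, is not reported here by name or in the figures. No genome or sequence table was used here, and positions were left out.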

Additional observations from a re-analysis of the deposited data

Results flagged for a closer look

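Among 34 tested members and 4 libraries per group, 7 sets of 4 values had 1 library farther from the others than Dixon's 95% critical value for 4 values allows, 3 alone and 4 with apoptotic cells. Chance flags about 1 in 20 groups, and over all tested genes 8.94% of alone sets and 5.002% of co-culture sets were past it. Alone library 1 held 7403 normalized counts of Slc25a39, with the others between 6883 and 6937, and 5.70 of Slc25a47, with the others at 13.4 to 15.0. Alone library 4 held 2151 normalized counts of Slc25a12, against 2024 to 2041. Co-culture library 2 held 436 normalized counts of Slc25a32, against 519 to 535, and 174 of Slc25a35, against 224 to 232. Co-culture library 1 held 1714 normalized counts of Slc25a17, against 1599 to 1615. Co-culture library 3 held 217 normalized counts of Slc25a45, against 203 to 206, still below every alone library.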

How the results depend on the processing

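The count of 0 members higher and 2 lower was the same with either pseudocount, with no filter, at a mean of at least 100, under TMM scaling, by edgeR and by DESeq2, and with Slc25a24 added under its LOC number. Array weights gave 3 higher and 4 lower, and the replicate block 0 and 1, with Slc25a42 lost. Leaving out 1 library gave 0 to 4 members higher and 0 to 4 lower, where alone library 3 or co-culture library 1 left out gave 0 lower and alone library 1 left out gave 4. Calls in the related mitochondrial lists, 8 with all libraries, were 16 with array weights, 5 with the block and 2 to 18 with a library left out. Over all genes, array weights called 1804 higher and 1674 lower, the block 498 and 400, and leaving out 1 library 419 to 1810 and 356 to 1695. Same-numbered libraries correlated at -0.26 to 0.18, and 1 of 4 alone libraries correlated best with its own number. With 4 such correlations and a deviating alone library 1, these values cannot show whether the numbers pair the libraries. The median log2 fold change over members was below 0 throughout, and ran from -0.0400 (co-culture library 1 left out) to -0.00807 (alone library 3 left out), with -0.0396 when alone library 2 was left out.

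The sign of the log2 fold change held in every alternative for 21 of the 34 members, the called ones among them. In the other 13 it turned, without a call at the turned sign, and the cause was not tested. With array weights Slc25a3 was at 0.0228, Slc25a25 at 0.0231 and Slc25a37 at -0.0268, and Slc25a35 was at 0.00883 by edgeR and 0.00922 by DESeq2. Over left-out libraries the log2 fold change ran from -0.0482 to 0.0336 for Slc25a3, -0.000265 to 0.0787 for Slc25a5, -0.087 to 0.00877 for Slc25a14, -0.0103 to 0.0518 for Slc25a16, -0.000536 to 0.0487 for Slc25a22, -0.0688 to 0.0479 for Slc25a25 and -0.0351 to 0.00596 for Slc25a30. It ran from -0.0854 to 0.0134 for Slc25a32, -0.0417 to 0.0972 for Slc25a35, -0.0245 to 0.0377 for Slc25a37, -0.245 to 0.00658 for Slc25a41, -0.106 to 0.034 for Slc25a43 and -0.0572 to 0.488 for Slc25a47. Depth limits Slc25a18, Slc25a41 and Slc25a47, with 107 to 213 reads each over 8 libraries.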
